A study of Mus musculus with 13 samples.

Results

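The naive and general pluripotency network is described here through 30 genes in CGR8 mouse embryonic stem (ES) cells, an established line of ES cells grown without feeders on gelatin, in medium with serum and leukaemia inhibitory factor (LIF). The genes were taken by symbol from the RNA-seq count table, which holds 24079 genes, and all 30 were found there. Asynchronous cells were treated for 48 h, the controls with the solvent alone (0.5% DMSO) and the others with PhenDC3 at 10 μM. PhenDC3 is a ligand that binds and stabilizes G-quadruplexes (G4), the folded structures that runs of guanines can form in DNA and RNA. RNA-seq was done on 3 control and 3 PhenDC3 samples. Origins of replication were mapped by SNS-seq, the sequencing of short RNA-primed nascent strands, in 3 control and 2 PhenDC3 samples, and each SNS-seq library was set against an RNase-treated library of its own condition. All samples come from the same line at 1 dose and 1 time. Whether the RNA samples were separate cultures is not given in the sources used here, so the p-values below measure the spread between these samples only.

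In ES cells the transcription factors OCT4 (encoded by Pou5f1), SOX2 and NANOG bind together at many of the genes that keep the cells undifferentiated, their own included. A second tier of factors, among them KLF4, KLF2, ESRRB, TFCP2L1 and TBX3, ties this core to LIF signalling and marks the naive state, which resembles the preimplantation epiblast. Cells that leave this state pass through a formative and then a primed state, in which naive factors are lost and genes of the postimplantation epiblast come on.

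All 30 genes passed the filter on low counts, and the lowest value of any of them in any library was 440 reads. Genes of the network moved in both directions with PhenDC3. Of the 30 genes, 10 were higher and 8 lower with PhenDC3, while 12 did not pass the test (edgeR's quasi-likelihood test, Benjamini-Hochberg adjusted p of at most 0.05 over all 13972 genes tested). The share called, 60.0%, stands beside 36.8% of all genes tested, of which 18.0% were higher and 18.7% lower. Without the first PhenDC3 sample, 9 genes of the network were higher and 5 lower, as all genes called lower went from 2617 to 1623. The largest rises were those of Tbx3, Tfcp2l1, Dppa3, Prdm14, Jam2 and Nanog, and the largest falls those of Nr0b1, Lin28a and Dppa4. The median log2 fold change of the 30 genes was 0.18 beside 0.01 over all genes tested, and the median of its absolute size was 0.56 beside 0.37. A log2 fold change beyond 1 in either direction was found for 9 of the 30 genes (30.0%) and for 15.1% of all genes tested.

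The libraries held between 22232014 and 29486502 counts. The ribosomal RNA precursor Rn45s took between 2.55% and 5.70% of the counts in the control libraries, and no gene took more than 1.43% in a PhenDC3 library. Without Rn45s in the table the counts were again 10 higher and 8 lower. Scaling by library totals alone moved the median log2 fold change of all genes to 0.16 and the share of rises among all calls from 49.0% to 68.0%, and it gave 14 higher and 7 lower among the 30 genes. All the values below are relative to the other expressed genes of the same library and do not measure RNA per cell. As a check of the ES cell label, Pou5f1, Nanog, Sox2, Zfp42 and Esrrb stood between the percentiles 95.9 and 99.3 of the tested genes by their control level per kb of exon.

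Since PhenDC3 binds G4, the sequences around the start sites were searched with G4Hunter, which scores runs of G in windows of 25 bases. A window scoring 2 or more lay within 500 bp of a curated RefSeq start site (TSS) in 16 of the 30 genes (53.3%), beside 54.9% of the 13949 tested genes with such a TSS. Of these 16 genes, 5 were higher (Klf4, Tbx3, Dppa3, Dppa5a and Jam2), 3 were lower (Dppa2, Lin28a and Tdh) and the other 8 were not called, so that 8 of 16 were called, beside 37.9% of the 7658 tested genes with a predicted G4. The strongest predicted G4 outside annotated exons is printed below for Klf4, Jam2, Lin28a and Tdh, to show what the ligand could meet at these promoters. Each is read 5′ to 3′ on the strand that carries the G runs, from the reference genome GRCm38.p6 (mm10) and not from CGR8 DNA, with the region in capitals and 10 flanking bases in lower case. Tbx3 (score 2.1) and Dppa3 (score 2.3) have predicted G4 that overlap an exon and are not printed. Dppa5a (score 3.5) and Dppa2 (score 3.4) have stronger predicted G4 outside exons, which are not printed either.
Klf4 G4: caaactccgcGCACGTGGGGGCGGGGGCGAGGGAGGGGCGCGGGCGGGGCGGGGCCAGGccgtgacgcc
Jam2 G4: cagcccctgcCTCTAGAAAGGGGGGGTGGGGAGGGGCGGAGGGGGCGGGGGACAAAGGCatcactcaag
Lin28a G4: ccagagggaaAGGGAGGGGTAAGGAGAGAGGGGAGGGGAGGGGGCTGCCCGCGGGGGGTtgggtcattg
Tdh G4: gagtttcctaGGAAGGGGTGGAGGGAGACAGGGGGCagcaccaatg
The Klf4 region, chr4:55532651-55532699, is centred 200 bp upstream of the TSS of Klf4 and scored 2.6. The Jam2 region, chr16:84773793-84773841, lies 306 bp upstream (score 3.2), and the Tdh region, chr14:63509459-63509484, lies 380 bp upstream (score 2.1). The Lin28a region, chr4:134018918-134018966, is 126 bp upstream of the curated TSS and inside an intron of a predicted longer transcript (score 2.3). In the printed Lin28a region the G runs are on the coding strand of the gene, and in the other 3 they are on the template strand. Lin28a also has a stronger region on the template strand (score 2.8), in a predicted exon. Klf4 has a stronger one as well, on the template strand in its exon (score 3.0). Quadparser, a second predictor, found no G4 at the promoter of Tdh, but did at those of Klf4, Jam2 and Lin28a. Klf4 and Jam2 also have weaker regions on the coding strand (scores 2.1 and 2.5). Klf4 and Jam2 rose while Lin28a and Tdh fell. The median log2 fold change was 0.22 for the 16 genes with a predicted G4 and −0.10 for the 14 without, beside 0.04 and −0.03 over all tested genes. At a G4Hunter threshold of 1.5 and with Quadparser the median of the genes without one turned to 0.07 and 0.08. Of the 14 genes without one, 10 were called (71.4%), 5 in each direction, beside 35.4% of the 6291 tested genes without one. Whether the 30 genes differ in this from other genes was not tested.

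The promoter of Nanog carries the joined SOX2 and OCT4 element through which the core factors bind it. The RefSeq promoter windows (250 bases before to 50 after each start, GRCm38.p6) matched 16 of the 30 genes. The joined element (SOX2 site first, 1 free base between both sites) was searched there on both strands as an exact spelling. It was found in 2 of 32851 windows (0.00609%). Both are overlapping windows of 2 starts of Nanog and hold the same genomic site. Sites that differ from this spelling by any letter were not counted. The 250 bases upstream of the first Nanog TSS, chr6:122707239-122707488 on the plus strand, are printed because Nanog is the member of the core that rose, with the match in capitals. The match reads TTTGCATTACAATG on the printed strand, the OCT4 site first, and is centred 69 bp upstream of the TSS.
Nanog promoter: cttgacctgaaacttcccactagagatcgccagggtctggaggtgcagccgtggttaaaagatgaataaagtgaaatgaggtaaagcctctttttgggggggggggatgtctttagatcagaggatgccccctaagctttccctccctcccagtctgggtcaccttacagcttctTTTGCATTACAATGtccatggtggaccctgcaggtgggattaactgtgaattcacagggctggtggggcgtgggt
The octamer ATGCAAAT, whose first letters overlap the end of that element, was found in 1.74% of the windows and in 1 of the 16 genes, Zfp42, 183 bp upstream of its TSS. The letters TCAAGGTCA (bound by ESRRB, in 0.423% of windows), GGGTGTGGC (KLF factors, 1.35%) and TTCCNGGAA (STAT factors, 1.15%), searched in the same way, were not found in the windows of these 16 genes. These motifs were chosen after the expression values had been seen.

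The core was divided. Nanog, the homeobox factor whose level varies between single ES cells, had a level of 491, 474 and 466 CPM (counts scaled to the normalized library size) in the controls and 1183, 1045 and 1109 with PhenDC3. Every PhenDC3 sample lay above every control. The log2 fold change was 1.22 ± 0.10 (SE, n = 3 per condition), or 2.33-fold (edgeR, adjusted p = 0.000101). Pou5f1, which encodes OCT4, stood at 1435, 1621 and 1403 CPM in the controls and at 1097, 1131 and 1045 with PhenDC3. The conditions did not overlap, and Pou5f1 was lower by a log2 fold change of −0.45 ± 0.11 (edgeR, adjusted p = 0.0113). This call was lost under scaling by library totals (−0.30, edgeR, adjusted p = 0.0837). Without the first PhenDC3 sample the log2 fold change was again −0.45 (edgeR, adjusted p = 0.0543). Sox2, the partner of OCT4 on DNA, gave 602, 637 and 635 CPM in the controls and 705, 703 and 774 with PhenDC3. Its conditions did not overlap either, but it did not pass the test, with a log2 fold change of 0.22 (95% confidence interval −0.01 to 0.45, edgeR, adjusted p = 0.122). Sox2 passed under scaling by library totals (0.37, edgeR, adjusted p = 0.0226) and with the replicate number as a block in the fit (0.22, edgeR, adjusted p = 0.0350).

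**Figure D1:**
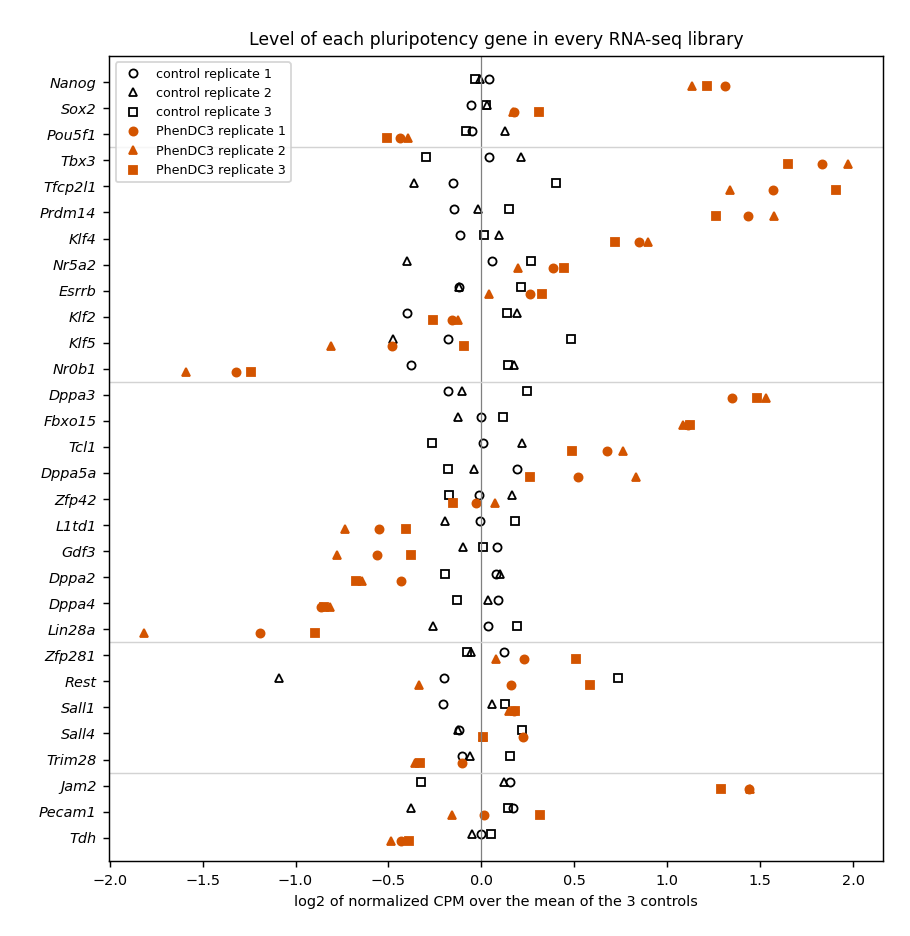
Level of each of the 30 pluripotency genes in every RNA-seq library, as log2 of normalized CPM over the mean of the 3 controls, with open symbols for controls and filled symbols for PhenDC3, and grey lines between the groups of genes (core, naive factors, embryo and germ cell markers, repressors, surface and metabolism). The PhenDC3 values lie apart from the controls for 21 of the 30 genes, among them Nanog, Tbx3, Tfcp2l1 and Nr0b1, and they overlap the controls for Zfp42, Rest and Pecam1.

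Of the 9 naive transcription factors, 4 rose, 1 fell and 4 were not called. Tbx3, a T-box repressor that holds back differentiation, had the largest rise of the 30 genes, from 116, 131 and 92.1 CPM in the controls to 403, 443 and 354 with PhenDC3. Its log2 fold change was 1.82 ± 0.16 (edgeR, adjusted p = 9.95e-05), or 3.54-fold. Exons of Tbx3 overlap those of the antisense gene Tbx3os1, and the strand setting of the counting is not given in the sources used here, so reads of the pair cannot be told apart. Tfcp2l1, a CP2 family factor induced by LIF through STAT3, went from 245, 212 and 360 CPM to 807, 687 and 1020. The conditions did not overlap although the samples of each were spread, and the log2 fold change was 1.62 ± 0.22 (edgeR, adjusted p = 0.000754). Prdm14, which represses FGF signalling and de novo DNA methylation genes in ES cells and is needed for germ cell fate, rose from 18.3, 20.1 and 22.5 CPM to 54.8, 60.3 and 48.6 (log2 fold change 1.43 ± 0.13, edgeR, adjusted p = 0.000141). Klf4, a zinc finger factor that acts downstream of LIF, rose from 154, 177 and 167 CPM to 299, 309 and 273. Its log2 fold change was smaller, 0.82 ± 0.11 (edgeR, adjusted p = 0.000762).

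Nr0b1, an orphan nuclear receptor (DAX1) that binds OCT4 and limits its activity, was the naive factor that fell. It had 65.4, 95.9 and 93.7 CPM in the controls and 34.0, 28.3 and 36.0 with PhenDC3, with no overlap. The log2 fold change of −1.38 ± 0.17, or 2.59-fold lower, was the largest fall among the 30 genes (edgeR, adjusted p = 0.000479). Esrrb, an orphan nuclear receptor at the centre of the naive network, had 564, 564 and 710 CPM in the controls and 734, 630 and 768 with PhenDC3. The conditions overlapped for Esrrb, whose log2 fold change was 0.21 (95% confidence interval −0.09 to 0.52, edgeR, adjusted p = 0.238). Under scaling by library totals it passed (0.37, edgeR, adjusted p = 0.0457). The other 3 also overlapped. Klf2, a relative of Klf4, had a log2 fold change of −0.18 (95% confidence interval −0.54 to 0.17). For Klf5, another relative, the interval was wide, from −1.0 to 0.14. Nr5a2, a nuclear receptor that binds regulatory regions of Pou5f1 and Nanog, had an interval from −0.03 to 0.72. It passed under scaling by library totals (0.50, edgeR, adjusted p = 0.0266) and without the third control sample (0.49, edgeR, adjusted p = 0.0350). With the replicate number as a block in the fit, Esrrb (edgeR, adjusted p = 0.0437) and Nr5a2 (edgeR, adjusted p = 0.00634) were called higher. Klf5 was then called lower (edgeR, adjusted p = 0.00223). The 3 KLF factors gave values of 0.82, −0.18 and −0.43, of which Klf4 alone passed the test without the block, while the differences between them were not tested.

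Of the 10 genes used as markers of the early embryo and germ line, 4 were higher, 5 were lower and 1 was not called. Dppa3 (Stella), which protects DNA methylation in the early embryo and marks primordial germ cells, rose from 20.8, 21.9 and 28.0 CPM to 60.0, 68.2 and 66.0 (log2 fold change 1.46 ± 0.14, edgeR, adjusted p = 0.000154). Fbxo15, an F-box protein gene bound by OCT4 and SOX2, rose from 146, 134 and 158 CPM to 315, 310 and 318. The samples of each condition lay close together for Fbxo15, and its log2 fold change was 1.11 ± 0.11 (edgeR, adjusted p = 0.000174). Tcl1, a coactivator of the kinase AKT, had 61.0, 70.7 and 50.5 CPM in the controls and 97.0, 103 and 85.0 with PhenDC3 (log2 fold change 0.64 ± 0.14, edgeR, adjusted p = 0.00789). Dppa5a, a gene for a KH domain RNA-binding protein, was at 2606, 2224 and 2017 CPM in the controls and at 3278, 4066 and 2734 with PhenDC3. It had the weakest call of the rises (log2 fold change 0.56 ± 0.16, edgeR, adjusted p = 0.0253), which was lost when any of 4 libraries was left out. These were control samples 2 and 3 and PhenDC3 samples 1 and 2, and Dppa5a then had a log2 fold change of 0.40 to 0.58 (edgeR, adjusted p = 0.0555 to 0.0717).

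Among the falls, Lin28a, an RNA-binding protein that blocks the maturation of let-7 microRNAs, went from 460, 375 and 514 CPM to 197, 128 and 242. The log2 fold change of Lin28a was −1.25 ± 0.22 (edgeR, adjusted p = 0.00279). Dppa4 and Dppa2 encode SAP domain proteins that act as a pair on chromatin. Dppa4 fell from 224, 216 and 193 CPM to 116, 120 and 117 (log2 fold change −0.84 ± 0.11, edgeR, adjusted p = 0.000563). Dppa2 fell from 167, 169 and 138 CPM to 117, 101 and 99.2 (−0.58 ± 0.12, edgeR, adjusted p = 0.00693). Gdf3, a TGF-β family ligand, fell from 105, 93.1 and 100.1 CPM to 67.4, 58.0 and 76.7 (−0.56 ± 0.13, edgeR, adjusted p = 0.00838). L1td1, an RNA-binding protein derived from a LINE-1 element, had 780, 685 and 890 CPM in the controls and 537, 472 and 592 with PhenDC3. Its log2 fold change was −0.56 ± 0.14 (edgeR, adjusted p = 0.0122), and the call was lost without the first PhenDC3 sample (−0.56, edgeR, adjusted p = 0.0510). Zfp42 (REX1), a classical marker of naive cells, had 806, 910 and 720 CPM in the controls and 796, 855 and 731 with PhenDC3. The ranges of Zfp42 coincided, with a log2 fold change of −0.03 (95% confidence interval −0.31 to 0.25, edgeR, adjusted p = 0.856).

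These markers include 2 groups of neighbours. Gdf3, Dppa3 and Nanog lie within 109 kb, in a stretch of 7 annotated genes from chr6:122605403 to 122714633 (GRCm38) of which these 3 were tested. Dppa3 and Nanog rose while Gdf3, at one end of the stretch and transcribed from the opposite strand, fell. Dppa4 and Dppa2 are adjacent within 35.8 kb, from chr16:48283735 to 48319513, with no annotated gene between them, and both fell.

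None of the 5 repressors and chromatin factors passed the test (edgeR), and none did at an unadjusted p below 0.05, with DESeq2 or with limma-voom. Scaling by library totals did call Zfp281 higher (0.44, edgeR, adjusted p = 0.0259). With the replicate number as a block in the fit, Zfp281 was called higher (edgeR, adjusted p = 0.0332) and Trim28 lower (edgeR, adjusted p = 0.0298). Sall4 and Sall1, zinc finger factors that work with the NuRD complex, had log2 fold changes of 0.08 (95% confidence interval −0.21 to 0.38) and 0.17 (−0.10 to 0.43). Zfp281, which brings NuRD to Nanog, gave 0.28 (−0.02 to 0.59). Trim28 (KAP1), the corepressor that silences retroelements, gave −0.26 (−0.53 to 0.01) although its conditions did not overlap. For Rest, the repressor of neuronal genes, the interval ran from −0.73 to 1.10, since its controls alone ranged from 81.2 to 287 CPM. Exons of Sall4 overlap those of the antisense gene Gm14261, with the same limit as for Tbx3.

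The 3 genes of the cell surface and of metabolism differed from each other. Jam2, a junctional adhesion molecule, rose from 152, 148 and 109 CPM to 370, 372 and 333 (log2 fold change 1.39 ± 0.15, edgeR, adjusted p = 0.000234). Tdh, the threonine dehydrogenase on which mouse ES cells depend, fell from 587, 568 and 608 CPM to 436, 419 and 449. Its log2 fold change of −0.44 ± 0.10 passed (edgeR, adjusted p = 0.00943), but not without the first PhenDC3 sample (edgeR, adjusted p = 0.0523). Pecam1, the adhesion molecule CD31, overlapped between conditions (0.07, 95% confidence interval −0.33 to 0.47).

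**Figure D2:**
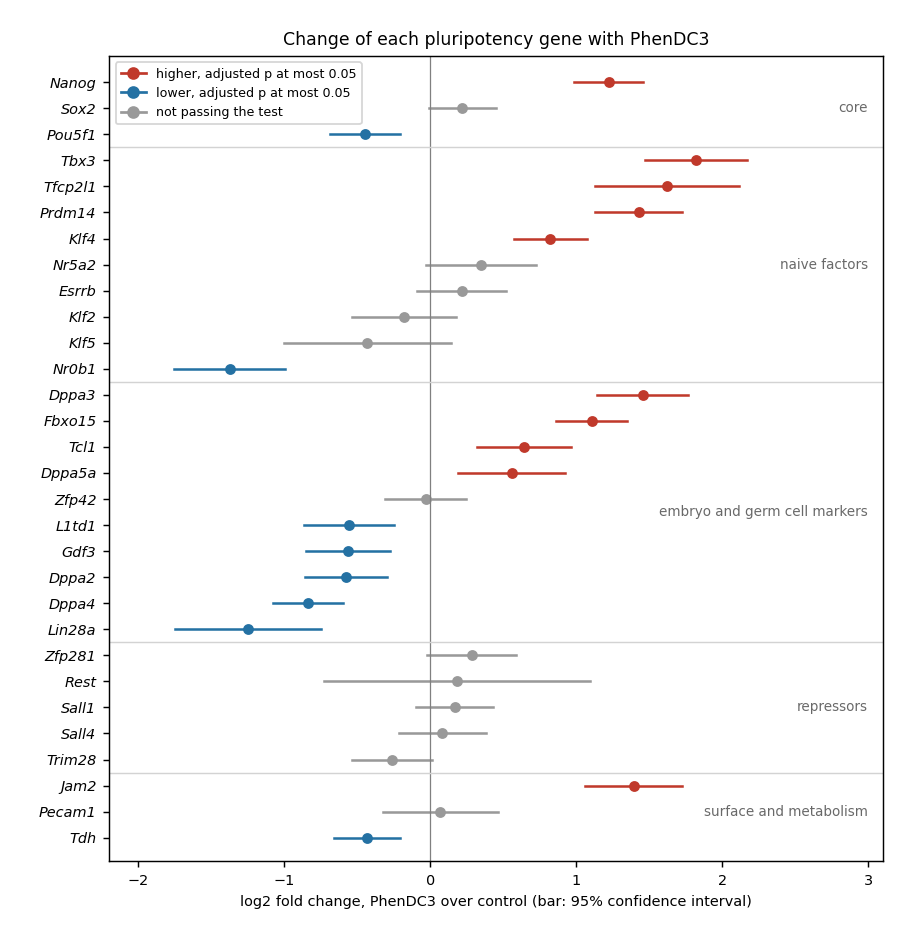
Log2 fold change of PhenDC3 over control for the 30 pluripotency genes in their 5 groups (points), with 95% confidence intervals (bars), in red where higher, blue where lower and grey where the gene did not pass an adjusted p of 0.05. Called changes range from −1.38 (Nr0b1) to 1.82 (Tbx3), the 5 repressors are all grey, and Rest has the widest interval.

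In all, the conditions did not overlap for 21 of the 30 genes (70.0%), beside 50.6% of all genes tested. These were the 18 called genes together with Sox2, Sall1 and Trim28. Of the 18 called genes, 14 were called under each of 14 alternative settings, and none of the 18 changed direction under any of them. The exceptions were Pou5f1, Dppa5a, L1td1 and Tdh.

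Levels were compared between genes as CPM per kb of exon. In the controls, Dppa5a had the highest level, 3560 ± 467 (SD), followed by Pou5f1 (1030 ± 81.5) and Trim28 (662 ± 65.6), whose ranges over the controls did not overlap. Zfp42 (451), Tdh (312), L1td1 (267), Sox2 (253) and Nanog (213) came next. The controls of Tdh and L1td1 and those of L1td1 and Sox2 overlapped. At the low end, Prdm14 had 7.82 ± 0.81. The changes reordered the network in the middle and left the first 3 places as they were. Nanog moved from place 8 to place 4, with 496 ± 30.8, above Zfp42 (441) and Sox2 (295). Tfcp2l1 went from place 22 to place 12, Tbx3 from 27 to 13, and Nr0b1 from 17 to 29.

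**Figure D3:**
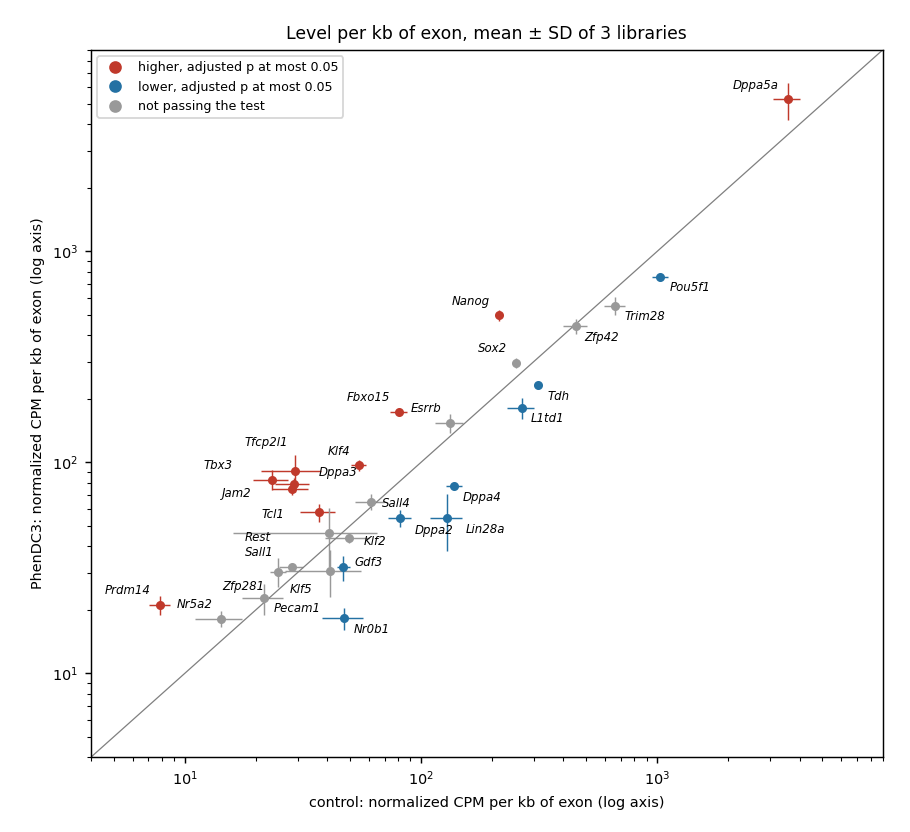
Level of the 30 genes in normalized CPM per kb of exon, control on the horizontal and PhenDC3 on the vertical axis (both log), as means with SD over 3 libraries, coloured by the test. The grey line marks equal levels. Nanog lies above it at 213 and 496, Nr0b1 below it at 47.3 and 18.2, and Dppa5a has the highest level in both conditions.

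Annotated copies could share reads with at least 4 of these genes. Copies were sought by name only, as the symbol of a gene followed by -ps or -rs, so copies under other names were missed. Of 9 copies of Pou5f1, Nanog, Dppa3 and Zfp42 in the RefSeq annotation, 1 matched an entry of the count table, Pou5f1-rs4, with a mean of 0.220 CPM in the controls and 0.243 with PhenDC3. How reads that fit several places were counted is not given in the sources used here, so these 4 genes carry that limit.

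The other genes of the pluripotency programme were looked at through 2 further lists. Of 25 other genes tied to the ES cell state, 5 were higher and 9 lower (8 lower with limma-voom), with a median log2 fold change of −0.16. The changes named here are falls. The lysosomal enzyme gene Manba went from 110, 113 and 115 CPM to 25.1, 22.5 and 31.2 (log2 fold change −2.10). Utf1, a chromatin-bound factor of ES cells, gave a log2 fold change of −2.02. Dnmt3l, the cofactor of de novo DNA methyltransferases, gave −1.55 and the Polycomb gene Phc1 −0.77. Of the 17 formative and primed genes, 12 were lower and none higher (also none at an unadjusted p below 0.05, with DESeq2 or with limma-voom). The others did not pass, among them Otx2, with a mean of 71.7 CPM in the controls and 71.5 with PhenDC3. The median log2 fold change of the 17 was −1.80, and their summed level was 1373 to 1887 CPM in the controls and 641 to 836 with PhenDC3. Etv5, Dnmt3b and Dnmt3a, with control means of 548, 437 and 166 CPM, made up most of that sum. Lef1, a transcription factor of WNT signalling, fell from 21.1, 21.2 and 33.5 CPM to 0.555, 0.335 and 0.327 (log2 fold change −5.93 ± 0.30, edgeR, adjusted p = 2.63e-05). Pou3f1 (OCT6), an early factor of the primed state, fell from 7.46, 14.5 and 15.5 CPM to 0.694, 0.586 and 1.20. Sox3 (−3.27), Tcf15 (−2.69) and Grhl2 (−2.37), factors of the early epiblast and its epithelium, were the next largest. Sox3 was low, at 1.34 to 3.42 CPM in the controls.

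Markers of other cell types moved as well. In bulk RNA, a change in the share of cells of a type and a change in RNA per cell cannot be told apart. Of the 8 primitive endoderm markers 7 rose, with Foxa2 (1.44), Sparc (1.02), Gata4 (1.01), Lama1 (0.99) and Sox17 (0.98) showing the largest log2 fold changes, and the summed level of the 8 went from 638 to 811 CPM in the controls to 1242 to 1493 with PhenDC3. Sparc and Lama1, with control means of 400 and 222 CPM, made up most of that sum. Foxa2 was low, at 1.09 to 1.82 CPM in the controls. Of the 6 trophoblast markers 5 could be tested and 4 rose, namely Gata3 (3.31), Krt18 (1.27), Krt8 (1.23) and Tfap2c (0.99). Their sum was 77.1 to 106 CPM and 175 to 230 CPM, while Cdx2 and Elf5, which define the lineage, were below 1 CPM in every library. Gata3 was also below 1 CPM in the controls (0.398, 0.957 and 0.303) and at 5.06 to 5.98 CPM with PhenDC3. In the mesoderm list, 1 of the 4 tested genes rose (Gsc, 2.97), with sums of 7.64 to 8.09 CPM and 6.90 to 10.3 CPM, and T, Mixl1 and Mesp1 were below 1 CPM throughout. Gsc itself was near the floor, at 0.036, 0.091 and 0.303 CPM in the controls and 0.617 to 1.46 CPM with PhenDC3. In the neural list, Nes rose (1.24) and Pax6 fell (−1.88) among 5 tested genes, with sums of 99.0 to 106 CPM and 102 to 124 CPM. In the fibroblast list, Thy1 fell (−1.31) among 3 tested genes, with sums of 5.88 to 6.84 CPM and 3.22 to 5.92 CPM, Col3a1 and Postn below 1 CPM and Lum at 0. The part of these cell types in the changes of the pluripotency genes was not tested.

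**Figure D4:**
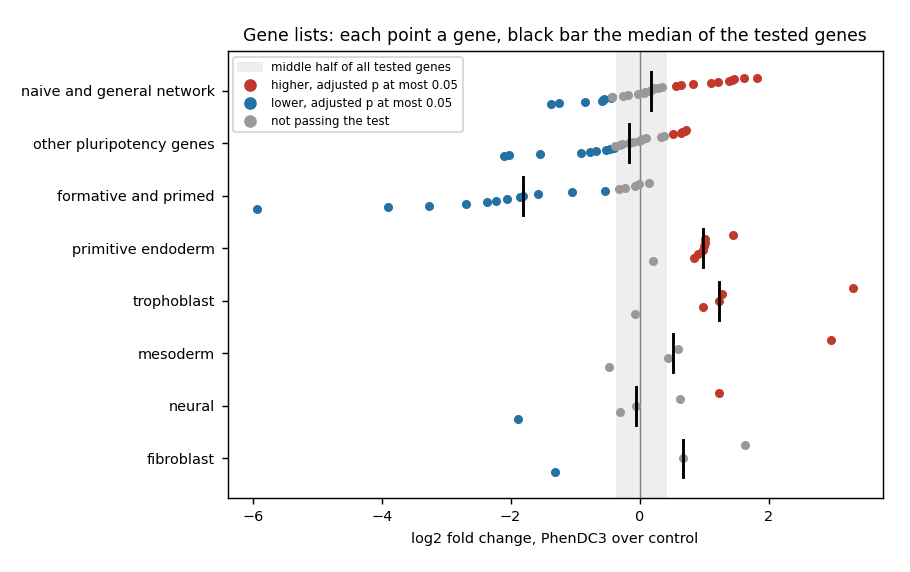
Log2 fold change of PhenDC3 over control for every tested gene of each list (points coloured by the test), with the median of the list (black bar) and, in grey, the range that holds the middle part of all tested genes, from the first to the last quartile. Most of the formative and primed genes lie to the left, with a median of the list of −1.80 and Lef1 at −5.93. The primitive endoderm markers lie to the right, and the pluripotency network spreads to both sides around 0.18.

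SNS-seq peaks were then looked for within 1 kb of a curated TSS of the 30 genes. The 5 lists held between 79384 and 144116 peaks, give no read counts, and are described here with no test, since an exact permutation test of 3 against 2 samples cannot reach a p of 0.05 and no model of the counts could be fitted. A peak lay at the promoter of 16, 15 and 6 of the 30 genes in the 3 control lists and of 13 and 9 in the 2 PhenDC3 lists, beside 62.2%, 60.4% and 32.5%, and 57.1% and 38.6%, of all tested genes. An origin was taken to be at a promoter where at least 2 lists of a condition had a peak there, which need not be the same peak. By this rule 16 genes had a control origin (53.3%, beside 56.9% of all tested genes) and 8 a PhenDC3 origin (26.7%, beside 33.9%). The rule asks for 2 of the 3 control lists but for both PhenDC3 lists, which is stricter. The numbers of the 2 conditions are therefore not like for like. Without the first or without the second control list, 5 genes had a control origin, where both lists left had to hold a peak. The 8 genes with a PhenDC3 origin were all among the 16, namely Pou5f1, Klf4, Klf2, Klf5, Sall4, Sall1, Zfp281 and Rest. A PhenDC3 origin with no control peak was found at 0 of the 30 genes, beside 1.88% of all tested genes. The spread between lists was not measured, so this is a count for these genes and these 5 lists only.

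No list had a peak at 13 of the 30 promoters (43.3%), beside 22.2% of all tested genes. These were the promoters of Nanog, Prdm14, Dppa3, Tcl1 and Fbxo15, whose RNA rose, of Nr0b1, Dppa2, Dppa4, Gdf3, L1td1 and Tdh, whose RNA fell, and of Zfp42 and Pecam1. Of the 14 genes without a control origin 12 were called, and of the 16 with one 6 were called, 4 higher and 2 lower. These shares of 85.7% and 37.5% stand beside 35.5% and 37.7% of all tested genes without and with a control origin, and the difference was not tested. A peak in each of the 5 lists was found at Pou5f1, Klf4 and Klf2.

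A control origin with no PhenDC3 peak was found at 3 genes (10.0%, beside 9.64% of all tested genes). At Tfcp2l1 the strongest control peaks had fold enrichments of 10.8, 7.40 and 7.12 over the RNase-treated library, with summits 1099 to 1130 bp upstream of the TSS. Tbx3 had peaks in control lists 1 and 3 (5.90 and 6.44), with summits 56 and 30 bp downstream of its TSS. Esrrb had peaks in control lists 1 and 2, of which the strongest (4.15 and 3.77) lay apart from each other. RNA of Tfcp2l1 and Tbx3 rose most of the 30 genes, while that of Esrrb did not pass the test. Klf2 had its strongest peak 275 to 291 bp downstream of the TSS in all 5 lists, with fold enrichments of 6.36, 5.36 and 5.40 in the controls and 2.85 and 3.05 with PhenDC3. At Klf4 the values were 8.79, 9.33 and 9.03 in the controls and 6.59 and 5.37 with PhenDC3. The Klf4 peak of PhenDC3 list 2 had its summit 720 bp upstream and did not overlap the strongest control peaks, the only ones compared. Summits of the strongest control peaks lay 461 to 531 bp upstream, so the Klf4 values are not all from the same site. Each condition was scaled to another RNase-treated library, so in the values of Klf2 and Klf4 the origin and that library cannot be told apart. How many other promoters had lower values with PhenDC3 was not counted. At Pou5f1 the strongest peaks of 13.9, 3.82 and 4.30 in the controls and 10.0 and 4.18 with PhenDC3 overlapped and lay at different sites.

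**Figure D5:**
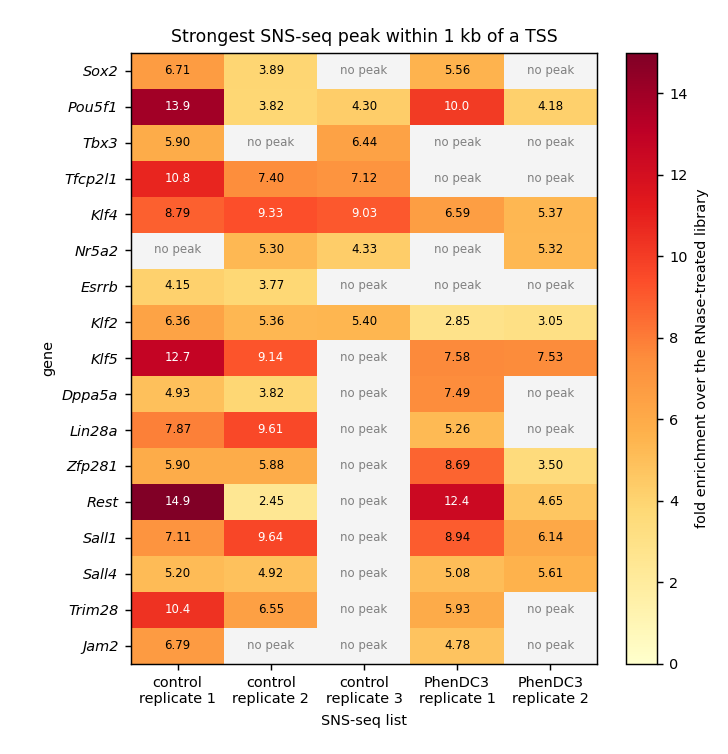
Fold enrichment over the RNase-treated library of the strongest SNS-seq peak within 1 kb of a TSS, for the 17 pluripotency genes with a peak in any list (rows) and the 3 control and 2 PhenDC3 lists (columns), with pale cells where no peak was called. Tfcp2l1, Tbx3 and Esrrb have peaks in control lists only, and control list 3 has the fewest peaks. The Klf4 peak of PhenDC3 list 2 lies at another site than the strongest control peaks.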

How the data were processed

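RNA-seq was analysed in 3 control and 3 PhenDC3 samples and SNS-seq in 3 and 2. The authors mapped RNA reads with TopHat2 (2.1.1) and Bowtie2 (2.2.9) and counted them on genes with HTSeq (0.6.1p1), and the deposited counts are raw. For SNS-seq the authors mapped to mm10, called peaks per replicate with MACS2 (2.1.0) against the RNase-treated library of the condition and kept those in a SICER region. The deposited lists give a fold enrichment (a ratio) and, per the file headers and values, a −log10 p-value. Depth of the lists is unknown. The authors' own table of fold changes and p-values and a table of normalized pseudo-counts were not used.

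Counts were fitted with edgeR (4.0.16, R 4.3.3), by robust quasi-likelihood with relative log expression normalization, filterByExpr and no block. The fit was tested on simulated counts of genes that had passed the filter, with no replicate effect. That test covers neither the filter nor the choice of no block. CPM were divided by the same library sizes. SE is the log2 fold change over the root of the F statistic. Alternatives were TMM, library totals, other filters, DESeq2 (1.42.0), limma-voom (limma 3.58.1), the replicate block, each sample left out and, added after seeing the data, the table without Rn45s. Exon lengths, TSS and sequences came from RefSeq on GRCm38.p6. G4 were also predicted at a G4Hunter threshold of 1.5 and with Quadparser. The genes and lists were chosen with earlier results of these data known. Every gene of the network is named, with values per sample for those called and for Pou5f1, Nanog, Sox2, Klf4, Esrrb and Zfp42, and up to 5 called genes of each other list. Further genes of those lists are named where they limit a reading. Some genes and sequences are not reported here.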

Additional observations from a re-analysis of the deposited data

How the results depend on the processing

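Of 420 values (30 genes under 14 alternatives), 394 kept their direction and their side of the threshold, 8 lost the call, 11 gained it and 7 changed sign, all 7 in genes that were not called. Zfp42 went to 0.12 under library totals, and with 1 sample left out it ranged from −0.12 to 0.052, above 0 without control sample 2 and without PhenDC3 sample 3 (0.02). Without the same samples Rest went below 0, to −0.16 and −0.07, in a range up to 0.76, and Pecam1 to −0.092 and −0.07, in a range up to 0.17. The genes of the network called lower numbered 5 to 8 with 1 sample left out, 5 without PhenDC3 sample 1, and all genes called lower 1623 to 2727, 1623 without that sample. Library totals gave 1688 genes lower and a median of 0.33 for the 30 genes. The cause was not tested.

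With the replicate number as a block, all genes called higher rose from 2518 to 3797 and lower from 2617 to 3692, and the 30 genes gave 14 higher and 10 lower. The block added the calls of Sox2, Esrrb, Nr5a2, Zfp281 (higher), Klf5 and Trim28 (lower), with adjusted p (edgeR) from 0.00223 to 0.0437. Deviations of the same-numbered samples correlated at 0.098, 0.63 and 0.49, the first under the limit of 0.1, so the numbers were not taken as pairs, although each sample correlated best with its own number. In the sample labels of the counts, the control and PhenDC3 samples of each replicate also carry consecutive numbers. Whether they were handled together is not given in the sources used here.

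At promoters, a window of 2 kb gave peaks at 19 of the 30 genes in PhenDC3 list 1 (13 within 1 kb). Keeping peaks above the median −log10 p left 4 PhenDC3 origins of 8. Control origins numbered 5 to 14 with 1 control list left out (16 with all), 5 without list 1 or list 2. A G4Hunter threshold of 1.5 found 25 genes with a predicted G4, and Quadparser 16. Peak lists give no depth, so an absent peak and one not detectable at the depth of that list cannot be told apart.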
